A study of Mus musculus with 2 samples.

Results

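Mir204 and Mir211 are the mouse hairpin genes that give miR-204 and miR-211, microRNAs (miRNAs) best known from the choroid plexus, the retinal pigment epithelium and pigment cells. They were found in the deposited count tables by the GENCODE M21 symbols of their Ensembl identifiers, and both are among the 1973 miRNA genes listed. The study sequenced small RNA of hindbrain from B6NCrl mouse embryos of both sexes, described as healthy, at embryonic day 12.5. It has 1 group of 2 libraries, biological replicates 2 and 1, made from pools of 88 and 120 embryos. Both pools carry the same donor label, so only the replicate numbers and the pool sizes mark them as separate, and the spread between them may be partly technical. There is no second condition, so the values below describe levels in this tissue and how closely the 2 libraries matched.

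A miRNA is cut from a hairpin precursor, loaded into an Argonaute protein and guides it to messenger RNAs that pair with the seed, bases 2 to 8 of the mature strand. Mir204 and Mir211 lie in introns of genes for transient receptor potential channels of the melastatin family, Trpm3 and Trpm1. Trpm3 encodes a cation channel opened by heat and by pregnenolone sulfate and is expressed in choroid plexus and sensory neurons, whereas Trpm1 is known from pigment cells and from bipolar cells of the retina. miR-204 is known for its part in eye development, shown in fish, and miR-211 is made together with the melanocyte transcript of Trpm1. The choroid plexus of the fourth ventricle arises from the roof of the hindbrain.

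The mature strands and hairpins are shown because the near identity of the 5p strands bears on which reads each count can hold. Sequences are from RefSeq on GRCm38.p6, which had entries for both genes, and run 5′ to 3′. In the mature strands the capitals mark the seed.
mmu-miR-204-5p: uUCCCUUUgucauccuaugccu
mmu-miR-211-5p: uUCCCUUUgucauccuuugccu
mmu-miR-204-3p: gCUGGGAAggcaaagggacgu
mmu-miR-211-3p: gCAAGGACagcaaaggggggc
In the hairpins the capitals mark the 2 mature strands.
Mir204: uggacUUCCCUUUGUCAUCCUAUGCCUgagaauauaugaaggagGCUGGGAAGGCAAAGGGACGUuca
Mir211: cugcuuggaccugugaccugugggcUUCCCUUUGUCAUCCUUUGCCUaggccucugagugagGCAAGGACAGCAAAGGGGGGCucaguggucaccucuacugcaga

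The 5p strands of both genes had the same seed and differed at 1 of 22 positions. The substitution from miR-204-5p to miR-211-5p was A17U, counted from the 5′ end, and it lies outside the seed. The 3p strands had different seeds and matched at 14 of 21 positions when set side by side without gaps. Over the whole hairpins, an alignment matched 51 of the 68 bases of Mir204 (75.0%), and the longest identical run was 17 bases. In a search of all annotated hairpins, neither hairpin met the criterion used for shared sequence, an identical run of 20 bases with another annotated hairpin. Compared with the other 1737 mature strands in the RefSeq table, the nearest to each 5p strand was that of its partner, and the next nearest had 9 substitutions.

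Of 1738 mature strands, 3 carried this seed. The third is miR-7670-3p, on chromosome 6, which matches the other 2 in the seed and differs from them at most positions after it.
mmu-miR-7670-3p: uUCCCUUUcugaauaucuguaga
Its gene Mir7670 had 0 counts in both libraries, so it could have reached at most 0.760 CPM (replicate 2) or 1.09 CPM (replicate 1). CPM are counts per 1000000 own-strand miRNA gene counts, and a count of 0 is bounded by 3 counts. The counts of hairpins with this seed were those of Mir204 and Mir211.

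The annotated hairpins differed in length, and their predicted folds were alike around the mature strands. The predicted minimum free energy was -33.70 kcal/mol for the 68 bases of Mir204 and -57.60 kcal/mol for the 106 bases of Mir211, or -0.496 and -0.543 kcal/mol per base. In each predicted fold, 17 of the 22 bases of the 5p strand paired with the 3p strand. The stretch between the strands was 17 bases in Mir204 and 15 bases in Mir211. The annotated Mir204 hairpin has 5 bases before the 5p strand, and that of Mir211 has 25 bases there. GC content was 48.5% in Mir204 and 57.5% in Mir211.

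Both hairpins occupied the same place in their host genes. Mir204 lies on the plus strand at chr19:22750605-22750672 and Mir211 on the plus strand at chr7:64205806-64205911 (GRCm38), each on the strand of its host. In the principal transcript of each host the hairpin is in intron 6, between exon 6 of 172 bases and exon 7 of 175 bases. The equal exon lengths hold for 12 of the 15 coding transcripts of Trpm3 that span Mir204 and for 6 of the 8 of Trpm1 that span Mir211. Of the other Trpm3 transcripts, 3 have an exon of 75 bases that ends 759 bases before Mir204. No annotated exon of either host overlapped a hairpin.

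The surrounding intron was 9.09 times longer in Trpm3 than in Trpm1, at 33462 bases against 3682 bases. Mir204 starts 17433 bases after exon 6 of Trpm3, and Mir211 starts 1212 bases after exon 6 of Trpm1. The map of both host genes shows this placement. Among 30 annotated channel genes of the transient receptor potential family, including polycystin and mucolipin genes, the tables held 1 further hairpin, Mir6416. It lies in Trpm1 on the opposite strand and had 0 counts in both libraries.

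**Figure D1:**
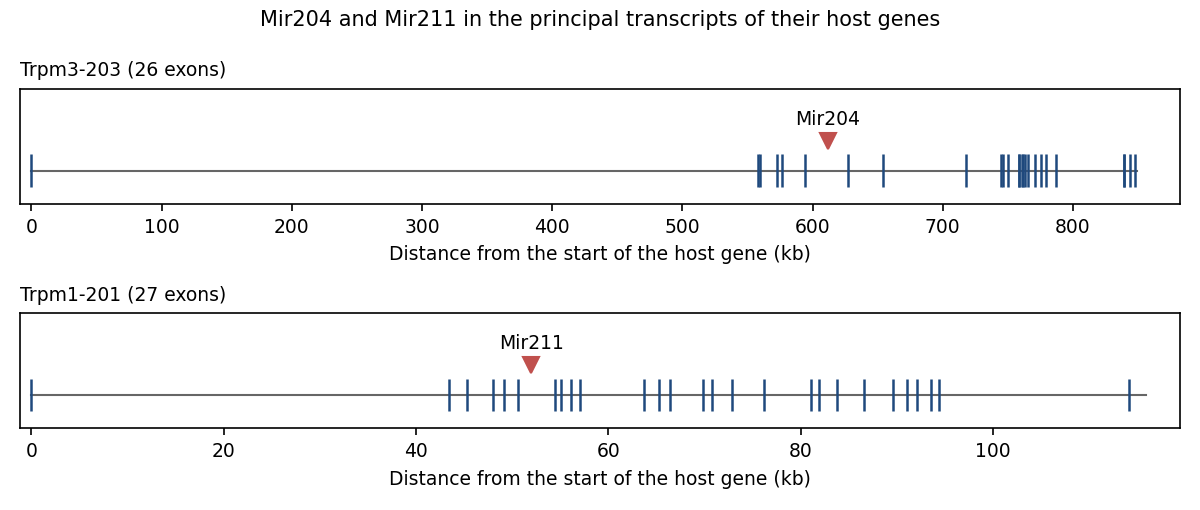
Exons (bars) of the principal transcripts of Trpm3 (above) and Trpm1 (below) by distance from the start of the host gene in kb, with the hairpins as triangles. Mir204 and Mir211 both lie between exons 6 and 7, and the Trpm3 gene is 7.39 times longer than the Trpm1 gene.

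Replicate 2 had 3946444 assigned counts and replicate 1 had 2764276, or 45.6% and 46.5% of the reads in their tables. Reads that match several positions, which are counted for no gene, made up 33.4% and 32.7%. The tables hold miRNA genes only, so neither the host messenger RNAs nor protein markers of choroid plexus were measured, and the cell type behind the counts could not be checked. The genes of the Hox clusters set position along the hindbrain and spinal cord, and the levels of the miRNAs in these clusters are given beside the tissue label. Without a second tissue they cannot check that label. Mir10a, beside Hoxb4, had 25880.0 CPM in replicate 2 and 26347 in replicate 1, and 4 of the 6 listed Hox cluster miRNAs were detected. Mir10b had 14531 CPM in replicate 2 and 15998 in replicate 1, and Mir615 had 1960.2 and 2237. Mir196b was far lower, at 36.2 CPM in replicate 2 and 25.0 in replicate 1. Mir196a-2 had 6 counts in replicate 2 and 3 in replicate 1, and Mir196a-1 had 0 in both. Neither was detected, and both lose reads that match their copies.

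Mir204 was a moderately abundant miRNA of the embryonic hindbrain, and Mir211 was detected at a low level. Mir204 (ENSMUSG00000065507) had 6329 counts in replicate 2 and 4346 in replicate 1. These are 1604 CPM in replicate 2 (exact Poisson 95% interval 1564 to 1644) and 1572 CPM in replicate 1 (1526 to 1619.7). Both libraries were close, with a mean of 1588 ± 22.3 CPM (SD, n = 2) and intervals that overlap. In pooled tissue, fewer cells of a type and less miRNA per cell cannot be told apart. Intervals and floors cover counting error only, since reads without molecular identifiers are not independent molecules.

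Mir211 (ENSMUSG00000065585) had 72 counts in replicate 2 and 43 in replicate 1. This gave 18.2 CPM in replicate 2 (exact Poisson 95% interval 14.3 to 23.0) and 15.6 CPM in replicate 1 (11.3 to 21.0), with a mean of 16.9 ± 1.90 CPM (SD, n = 2). Mir211 was thus low in both pools, but above the detection limit of 10 counts in each library. A single read was worth 0.253 CPM in replicate 2 and 0.362 in replicate 1. On the strand opposite to the hairpin both genes had 0 counts in both libraries, so their counts are the same with either strand setting.

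Together the genes held 0.162% of the counts in replicate 2 (95% interval by Clopper-Pearson from 0.158% to 0.166%) and 0.159% in replicate 1 (from 0.154% to 0.164%). Nearly all of it was Mir204, with 98.9% of the sum in replicate 2 and 99.0% in replicate 1. The part of Mir211 in the sum was 1.12% in replicate 2 (from 0.881% to 1.41% by the same method) and 0.980% in replicate 1 (from 0.710% to 1.32%). Since each count merges both arms of a hairpin, the 5p and 3p strands were not measured apart.

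Mir204 exceeded Mir211 by 87.9-fold in replicate 2 (exact 95% interval 69.7 to 112) and by 101-fold in replicate 1 (74.9 to 139.9). The mean ratio was 94.5 ± 9.31 (SD, n = 2), so the excess of Mir204 was far larger than the spread between the libraries. Fisher's exact test of the 4 counts, two-sided, did not separate the ratios of the 2 libraries (p = 0.505, a ratio of ratios of 0.870). A sign-flip test over 2 libraries cannot give a p below 0.5, and no other test of the order of the genes was run. Reads of small RNA are taken as whole mature strands and not as fragments, so counts were not divided by length. Per hairpin base the mean ratio of Mir204 to Mir211 was 147.

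The counts of Mir211 came to 1.14% of those of Mir204 in replicate 2 and 0.989% in replicate 1, while the 5p strands are 1 substitution apart. How many Mir204 reads with an altered base were placed at Mir211 was not tested. The mismatch setting of the alignment is not given in the sources used here. The low count of Mir211 carries that uncertainty.

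Among the 371 miRNA genes that had 10 or more counts in each library and are called detected, Mir204 was at rank 83 and Mir211 at rank 299 by mean CPM. Mir204 was at rank 82 in replicate 2 and 85 in replicate 1, and Mir211 was at rank 294 in replicate 2 and 300 in replicate 1. Below Mir204 were 77.6% of the detected genes, and below Mir211 were 19.4%. Levels of different miRNAs also carry the ligation preferences of small RNA libraries, which act on each sequence. Ranks are therefore less certain than the match of a gene between libraries.

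**Figure D2:**
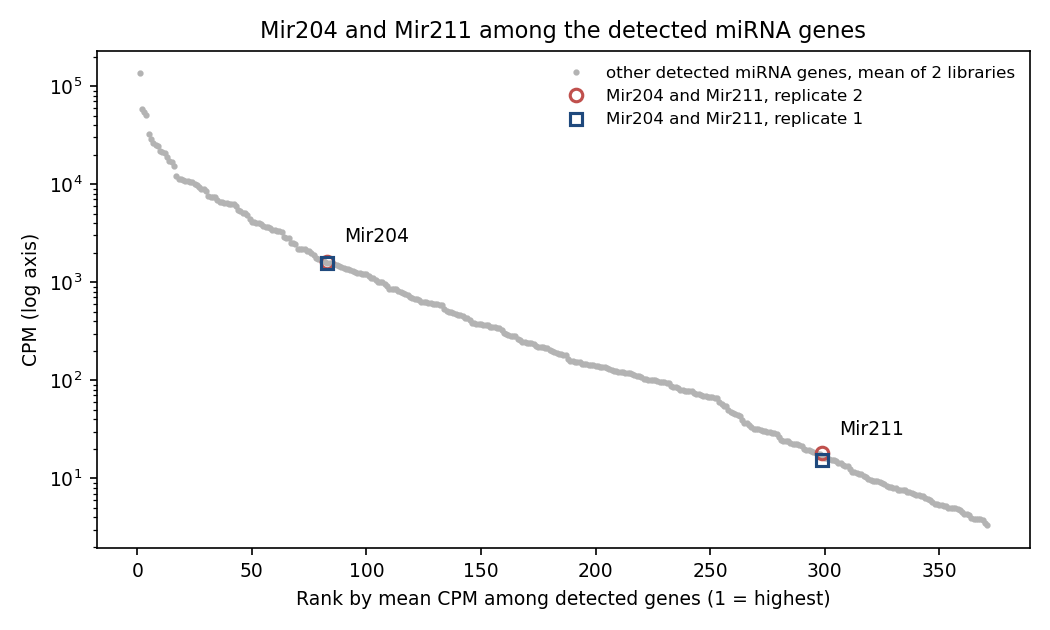
CPM on a log axis by rank for the 371 detected miRNA genes (grey, mean of 2 libraries), with Mir204 and Mir211 shown for replicate 2 (circles) and replicate 1 (squares). The symbols of the 2 libraries nearly coincide for Mir204 at rank 83 and lie slightly apart for Mir211 at rank 299.

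Mir204 was separated from most other genes by more than the spread of the libraries. In both libraries 79 detected genes were wholly above its range and 282 wholly below it, and the ranges of 9 overlapped with it. These counts rest on the narrow range of Mir204 over 2 libraries, with an SD of 1.40% of the mean. A wider range would overlap with more genes. Its neighbours in rank were Mir98, Mir467c and Mir467d above, and Mir107, Mir375 and Mir532 below. Mir98 is a let-7 family member, and Mir375 is known from endocrine cells. Mir98 had 1584 CPM in replicate 2 and 1792 in replicate 1. Mir375 had 1379.7 CPM in replicate 2 and 1687 in replicate 1. Of these 6 neighbours, Mir467c had a range apart from that of Mir204, at 1737 CPM in replicate 2 and 1631 in replicate 1.

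The genes most like Mir204 over the 2 libraries, by Euclidean distance of log2(CPM + 1), were Mir107 (0.026), Mir467c (0.127) and Mir101b (0.132). Mir107, which lies in a pantothenate kinase gene, had 1592 CPM in replicate 2 and 1547 in replicate 1. All 3 have an identical run of 20 bases with another hairpin, which Mir204 does not, and reads that match both hairpins are not in their counts. With 2 libraries this likeness describes level and little else.

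Around Mir211 the ranges of 20 detected genes overlapped with its own, which was relatively wider than that of Mir204, while 287 genes were wholly above and 63 wholly below. Within 2-fold of the mean level lay 58 detected genes for Mir211 and 50 for Mir204. Its neighbours were Mir294, Mir190b and Mir1930 above and Mir3080, Mir3058 and Mir344f below, and all 6 ranges overlapped with that of Mir211. Mir294, of the miR-290 cluster of embryonic stem cells, had 11.1 CPM in replicate 2 and 25.0 in replicate 1. The nearest over both libraries were Mir3080 (distance 0.098), Mir344f (0.242) and Mir3066 (0.264). Mir3080 had 17.0 CPM in replicate 2 and 15.6 in replicate 1.

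**Figure D3:**
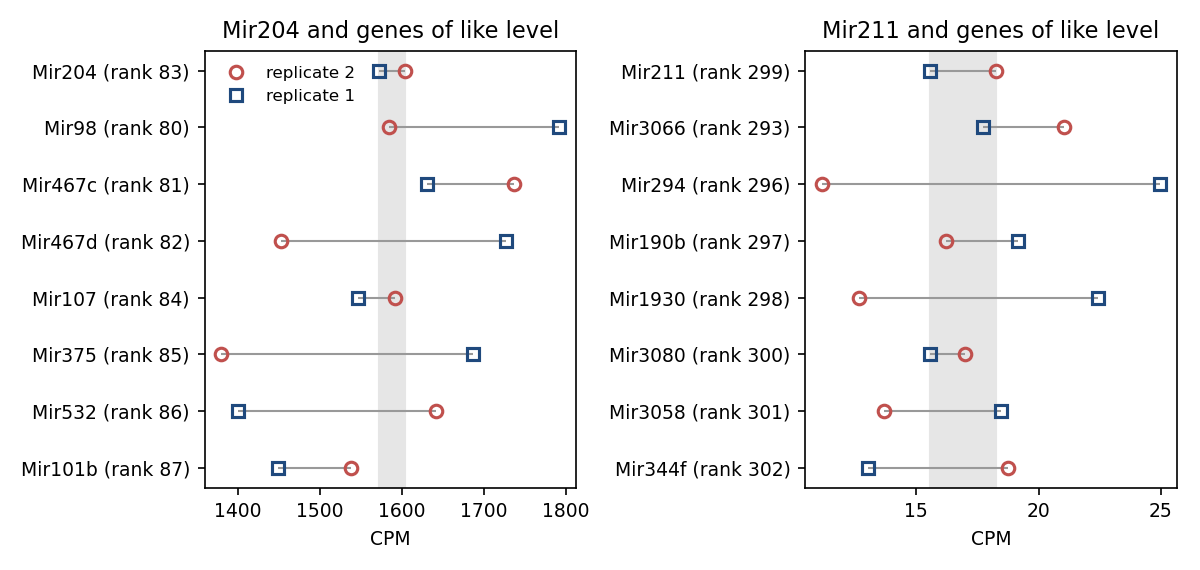
CPM in replicate 2 (circles) and replicate 1 (squares) of Mir204, Mir211 and the genes nearest to each, with the range of Mir204 (left panel) or Mir211 (right panel) shaded. The ranges of Mir467c and Mir101b lie outside that of Mir204, while every gene drawn beside Mir211 overlaps with it.

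Neither Mir204 nor Mir211 was called as different between the libraries. Each gene's counts in the 2 libraries were set against the library totals by an exact binomial test, two-sided. It was run on the 393 genes that averaged 10 or more counts, with p-values adjusted after Benjamini and Hochberg, and it compares these libraries and not conditions. Its p-values, like that of Fisher's test above, take reads as independent and cover counting error only. A call needed an adjusted p under 0.05 and at least a 2-fold difference, and 3.56% of the genes tested were called, 2.29% higher and 1.27% lower in replicate 2. Mir204 was 1.02-fold higher in replicate 2 than in replicate 1 (log2 ratio 0.029, adjusted exact p = 0.430). Mir211 was 1.17-fold higher in replicate 2 (log2 ratio 0.22, adjusted exact p = 0.556).

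Without a minimum fold, 51.7% of the genes tested had an adjusted exact p under 0.05, and neither Mir204 nor Mir211 did. With DESeq2 size factors in place of the totals Mir204 did, at an adjusted exact p of 0.0218 and a log2 ratio of 0.073. The 2 CPM values of Mir204 had a coefficient of variation of 1.40%, and those of Mir211 one of 11.2%, counting noise included. Over the tested genes, edgeR's common dispersion corresponds to a coefficient of variation of 17.4% on top of counting noise. Of the 371 detected genes, 16 had a smaller absolute log2 ratio than Mir204, and 178 had a smaller one than Mir211. Among 50 detected genes within 2-fold of the level of Mir204, the median absolute log2 ratio was 0.19. It was 0.31 among 58 such genes around Mir211.

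**Figure D4:**
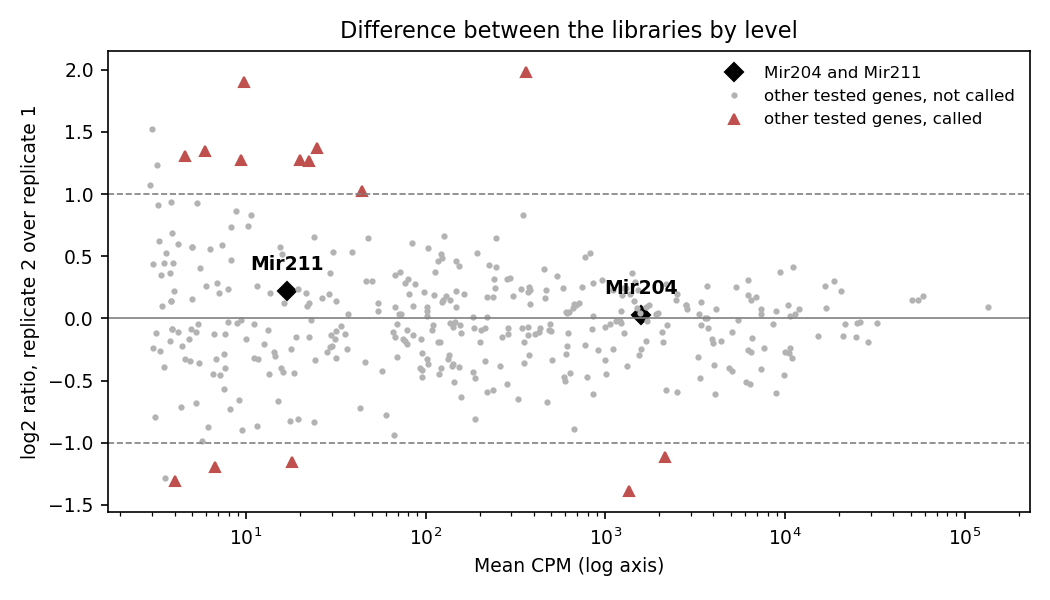
log2 ratio of replicate 2 over replicate 1 against mean CPM (log axis) for the 393 genes tested, with Mir204 and Mir211 as diamonds, called genes as triangles and 2-fold differences as dashed lines. Mir204 lies at 0.029 and Mir211 at 0.22, both inside the dashed lines.

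The miRNAs of cell types that could lie in or beside choroid plexus were compared with both genes by their levels. Multiciliated epithelium is marked by the miR-449 and miR-34 genes, and all 5 listed genes were detected. Choroid plexus epithelium itself bears tufts of cilia. The counts of this list and those of Mir204 and Mir211 can therefore come from the same or from different cells, which was not tested. Mir204 and Mir211 summed to 1622 CPM in replicate 2 and 1588 in replicate 1, whereas the multiciliated genes summed to 8531 CPM in replicate 2 and 7014 in replicate 1. Mir449a, which promotes the making of cilia, had 6929 CPM in replicate 2 and 5582 in replicate 1, or 4.32 and 3.55 times the level of Mir204. Mir34c had 1506 CPM in replicate 2 and 1368 in replicate 1, slightly below Mir204 in each. The remaining multiciliated genes, Mir34b, Mir449b and Mir449c, were far below Mir204 in both libraries, at 0.00483 to 0.0346 times its level. Most of the sum of this list was thus Mir449a.

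Of the multiciliated genes 1 of 5 was called, beside 3.56% of all genes tested. This was Mir449c, which had 28.4 CPM in replicate 2 and 11.6 in replicate 1. The median log2 ratio was 0.13 for Mir204 and Mir211, 0.31 for the multiciliated list and -0.04 for all genes tested. Whether Mir204 differed from this list in its match between the libraries was not tested.

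The epithelial list, of the miR-200 family with Mir203 and Mir205, had all 7 genes detected and summed to 6469.9 CPM in replicate 2 and 9659.7 in replicate 1. Of these, 2 of 7 were called, beside 3.56% of all genes tested. They were Mir429 and Mir200c, both lower in replicate 2, and the median log2 ratio of the list was -0.81. Mir200b (-0.89) and Mir141 (-0.81) were also lower, whereas Mir200a (-0.03) and Mir203 (-0.05) hardly differed and Mir205 was higher (0.20). Mir203, the highest gene of the epithelial list, had 2155 CPM in replicate 2 and 2229.5 in replicate 1, above Mir204 in both. No other gene of the list was above Mir204 in both libraries. Mir200a, Mir200b, Mir141 and Mir205 were below it in both, at 0.0850 to 0.910 times its level. Mir429 was at 0.849 times Mir204 in replicate 2 and 1.88 times in replicate 1. Mir200c had 746 CPM in replicate 2 and 1959 in replicate 1, so it was below Mir204 in replicate 2 and above it in replicate 1. The retina, lens and sensory organ list bears on eye tissue as another known source of miR-204. It had no called gene, beside 3.56% of all genes tested. Its highest gene Mir182 had 9776 CPM in replicate 2 and 11541 in replicate 1. Mir184, known from lens and cornea, had 16 counts in replicate 2 and 5 counts in replicate 1. The part of any of these cell types in the counts of Mir204 and Mir211 was not tested.

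Other cell types of the tissue gave the following levels beside Mir204. The highest of the neuronal list was Mir137, a regulator of neuronal differentiation. It had 3343 CPM in replicate 2 and 3263 in replicate 1, or 2.08 times Mir204 in each. Mir153 was at 1.01 times Mir204 in replicate 2 and 0.837 times in replicate 1. The remaining neuronal genes, of miR-124a and miR-128, were below Mir204 in both libraries, at 0.000474 to 0.180 times its level. They lose reads that match their copies. Mir9-3, of neural progenitors, had 398 CPM in replicate 2 and 367 in replicate 1, but reads shared with its copies are lost from that value. Endothelial Mir126a and the highest genes of the smooth muscle and mesenchyme lists, Mir143 and Mir214, were at 5.23 to 16.5 times the level of Mir204 in the 2 libraries. The other genes of these lists, Mir145a, Mir199a-1, Mir199a-2 and Mir199b, were below Mir204 in both libraries, at 0.00782 to 0.605 times its level, and the 3 miR-199 genes lose reads that match their copies. Mir451a of red blood cells was lower than Mir204, with 316 CPM in replicate 2 and 254 in replicate 1. No gene of these 6 lists or of the Hox list was called, beside 3.56% of all genes tested. At that share, lists this short can be expected to hold few or no called genes.

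About 48.0% of the detected genes lie, like both of these, inside a protein-coding gene on the same strand. Among these 178 genes Mir204 was at rank 39 and Mir211 at rank 129 by mean CPM. The median level of the 178 genes was 128 CPM, so Mir204 was above and Mir211 below it in both libraries. The median of all detected genes was 183 CPM.

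The imbalance of Mir204 over Mir211 was set beside other pairs of detected genes that have mature strands of equal length with the same seed and 1 substitution. This comparison was chosen after the values had been seen and is a description. With this one there were 17 such pairs, with a median ratio of the higher to the lower gene of 6.61. The ratio of Mir204 to Mir211 was exceeded by that of Mir107 to Mir103-1, at 393 in replicate 2 and 238 in replicate 1. The miR-103 copies lose reads that match both, and 12 of the 17 pairs include a gene with an identical run of 20 bases in another hairpin. The other 5 pairs had a median ratio of 2.45, and that of Mir204 to Mir211 was the highest of the 5. Among these, Mir17 to Mir106a followed with 26.6 in replicate 2 and 24.9 in replicate 1, and Mir10a to Mir10b was lowest with 1.78 in replicate 2 and 1.65 in replicate 1.

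**Figure D5:**
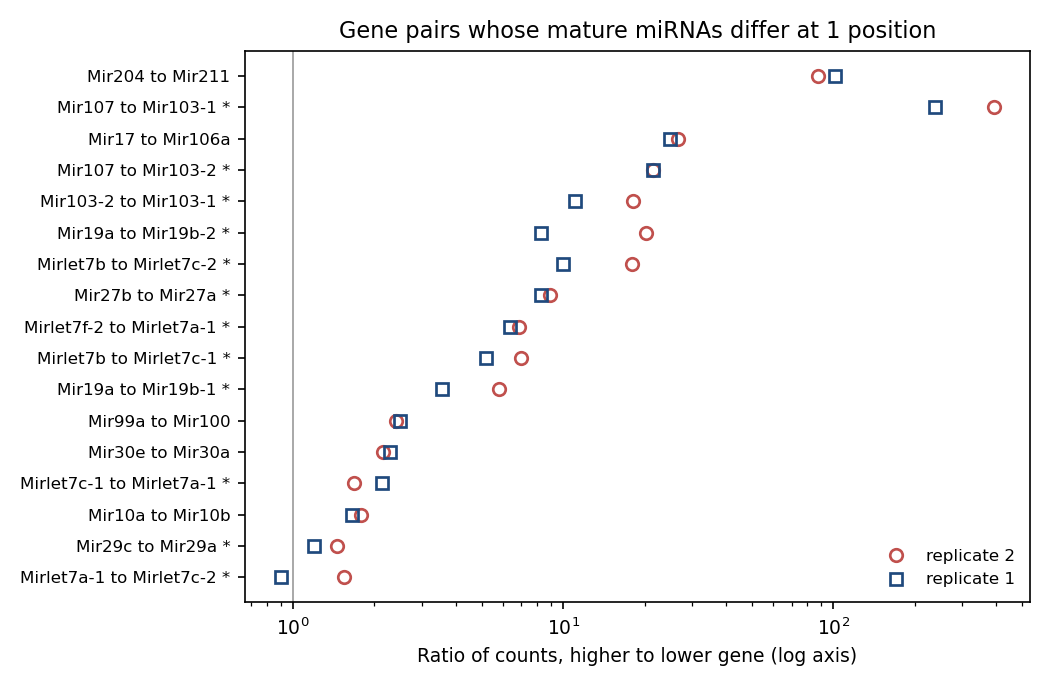
Ratio of counts of the higher to the lower gene (log axis) in replicate 2 (circles) and replicate 1 (squares) for the 17 pairs of detected genes with mature strands 1 substitution apart and the same seed, where an asterisk marks pairs with a hairpin that shares a run of 20 bases with another. Mir204 to Mir211, at the top, lies at 87.9 and 101, to the right of every pair but Mir107 to Mir103-1.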

How the data were processed

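For each library the authors deposited raw read counts of miRNA genes from alignments to mm10 with the GENCODE M4 annotation, as the accompanying text states. Which aligner, trimming and mismatch settings were used is not given in the sources used here. The tables have no header, and the second count column was read as the gene's own strand from the layout and totals. Rows that name no gene (unmapped 16.2% of reads in replicate 2 and 15.7% in replicate 1, several positions, outside genes) stayed out of totals. Identifiers were matched without version to GENCODE M21 (1894 of 1973); Mir204 is version 2 in the tables and 3 in M21, so its counted interval may differ.

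CPM and exact tests were computed in Python 3.11.15 with SciPy 1.17.1, pandas 2.3.3 and numpy 2.4.6. Figures were drawn with matplotlib 3.10.9, hairpins folded with ViennaRNA 2.7.2 and aligned with Biopython 1.88. Scaling alternatives and the common dispersion used edgeR 4.0.16 and DESeq2 1.42.0 in R 4.3.3. Ratios between libraries had 0.5 added to each count. Genes named beside the members were the 3 next above and below in rank, the 3 nearest in level, the highest of each marker list, seed sharers and hairpins in channel genes; others named were chosen after their values were seen. The members and lists were chosen with earlier results of these data known.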

Additional observations from a re-analysis of the deposited data

How the results depend on the processing

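Of 60 alternative values for 9 results, 42 were counted as unchanged. This meant within the spread of the libraries for level, share, ratio and rank, and on the same side of the threshold for log2 ratios. For the number of genes called between the libraries, 13 to 19 against 14 were counted as unchanged. Direction was checked for the log2 ratios of Mir204 and Mir211 only, and these kept their sign. Part of the count of 42 was fixed in advance. For level, share and ratio, a single library always lies within that spread around the mean of both. Scaling factors that move the totals in opposite directions hardly change a mean CPM. With 0 opposite-strand counts for both genes, counting both strands cannot move their ratio. Levels followed the denominator. Mir204 had 1550.4 CPM with both strands counted, 1835 CPM without the most abundant gene in the total, 1726 CPM without genes that share sequence and 731 CPM of all reads in the tables. Mir211 had 19.5 CPM without the most abundant gene and 7.77 CPM of all reads. Their joint share was 0.157%, 0.185%, 0.174% and 0.0739% under the same 4 totals as Mir204. With both strands counted the ranks were 88 for Mir204 and 310 for Mir211, and without genes that share sequence 70 and 228. Leaving out each library put Mir211 at rank 294 to 300. Per hairpin base the ratio of Mir204 to Mir211 was 147. Mir204 and Mir211 were called under none of the alternatives. Their adjusted exact binomial p ranged from 0.0218 (DESeq2 size factors, log2 ratio 0.073, under 2-fold) to 0.583 for Mir204 and from 0.477 to 0.730 for Mir211. The genes called between the libraries numbered 4 when only genes averaging 100 or more counts were tested, and 203 without a minimum fold, against 14. Mir211 has too few counts for the first of these. No paired analysis was possible because there is 1 group. With 72 and 43 counts, the depth limits Mir211 to the intervals given.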
